A study of Homo sapiens with 2 samples.

Results

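The genes described here are those of the MHC class I molecule and of its peptide supply, taken as all probe sets that the array's annotation assigns to HLA-B, HLA-C, HLA-E, B2M, TAP1, TAP2, TAPBP, ERAP1 or ERAP2. They are 9 genes with 31 probe sets, of 12541 genes that were measured and 54613 human probe sets in all. Total RNA was read on 2 Affymetrix arrays. One array holds K562 cells overexpressing PML4 from a retrovirus, and the other holds K562 cells with the empty vector pMSCV. PML4 is one of the splice isoforms of PML, the protein around which PML nuclear bodies form. K562 is an established human leukaemia line that carries the BCR-ABL fusion. Both groups were selected with G418 for 3 weeks, and the labels do not say whether the cells were clones or pools.

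Each group has 1 array, so no value has a replicate error, no difference was tested, and every difference is that between these 2 arrays. Signals are MAS5 intensities as the authors deposited them, and the number of arrays limits their precision. A probe set was called measured when its signal lay above a floor of 72.4, the median of all human probe sets, on at least 1 array. Lower signals were set to the floor and then logged, so where only 1 array was above it the fold is a minimum. Differences are on the log2 scale, control vector subtracted from PML4. A gene is represented by its measured probe set of highest mean signal. For 16239 pairs of probe sets that read 1 gene and were above the floor on both arrays, the median gap between their log2 differences was 0.288. That gap is the nearest measure of error in these data, but it holds no error between arrays or cultures. Each probe set has its own probe response, so signals of different probe sets were not read as relative amounts of RNA. Mean signal was ranked to choose a gene's probe set, to name bright genes and to group genes by percentile.

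MHC class I molecules show peptides from inside the cell to CD8 T cells. A polymorphic heavy chain such as HLA-B or HLA-C, or the conserved HLA-E, pairs with beta-2-microglobulin, the product of B2M. Peptides cut by the proteasome are carried into the endoplasmic reticulum by TAP1 and TAP2, trimmed there by ERAP1 and ERAP2, and loaded with the help of tapasin, the product of TAPBP. Interferons and NF-kB are known inducers of most of these genes, and K562 cells are known for very little class I protein on their surface and as a target of natural killer cells.

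Promoter sequence is shown for 4 members. HLA-B and HLA-C are shown because their differences were unlike although the windows are alike. B2M and TAP1 are shown as examples of windows with matches to motifs of both interferon and NF-kB response, which the TAPBP window also holds. Each run is the 250 bases upstream of the RefSeq start in build GRCh38.p14, 5′ to 3′ in the gene's direction. Capitals mark matches on either strand to the core of the interferon-stimulated response element (GAAA, any 2 bases, GAAA), TTCNNNGAA (the gamma-activated sequence), the kappa B consensus and CCAAT (the Y box). Overlapping matches run together. The windows are chr6:31357180-31357429 on the minus strand for HLA-B, chr6:31272093-31272342 on the minus strand for HLA-C, chr15:44711267-44711516 on the plus strand for B2M and chr6:32853705-32853954 on the minus strand for TAP1.
HLA-B: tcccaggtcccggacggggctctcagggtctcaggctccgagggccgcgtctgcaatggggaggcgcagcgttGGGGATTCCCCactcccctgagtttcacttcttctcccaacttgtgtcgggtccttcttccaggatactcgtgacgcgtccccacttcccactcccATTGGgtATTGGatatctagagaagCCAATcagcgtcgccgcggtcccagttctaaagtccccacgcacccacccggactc
HLA-C: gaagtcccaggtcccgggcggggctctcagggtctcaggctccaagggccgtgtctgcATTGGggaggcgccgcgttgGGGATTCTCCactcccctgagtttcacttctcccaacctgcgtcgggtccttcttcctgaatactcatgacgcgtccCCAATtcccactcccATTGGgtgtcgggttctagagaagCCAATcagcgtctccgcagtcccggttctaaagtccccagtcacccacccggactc
B2M: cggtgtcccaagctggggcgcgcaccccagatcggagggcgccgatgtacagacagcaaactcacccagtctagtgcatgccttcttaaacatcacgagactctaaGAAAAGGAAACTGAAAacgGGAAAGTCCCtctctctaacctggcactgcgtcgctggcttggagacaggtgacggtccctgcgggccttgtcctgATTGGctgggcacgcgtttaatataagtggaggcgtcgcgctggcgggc
TAP1: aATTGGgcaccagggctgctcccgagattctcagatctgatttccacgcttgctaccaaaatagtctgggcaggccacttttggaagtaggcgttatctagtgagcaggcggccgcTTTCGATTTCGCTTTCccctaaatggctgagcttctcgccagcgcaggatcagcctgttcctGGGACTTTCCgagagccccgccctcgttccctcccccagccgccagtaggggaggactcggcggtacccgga

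RefSeq's table held 11 such windows for 8 of the 9 genes, with HLA-E not among them. The HLA-B and HLA-C windows were identical at 226 of 246 aligned bases, or 91.9%. Both hold a kappa B match and several CCAAT matches. The response element core occurred in 5 of the 11 windows, 1 each for B2M, TAP1, TAP2, TAPBP and ERAP2, against 3.02% of the 35116 windows in the table. It lay at -58 to -49 in TAP2 and at -30 to -21 before one of the ERAP2 starts, counted from -1 at the base next to the start. In TAPBP a pair of overlapping matches lay between -20 and -5. The kappa B consensus occurred in 6 of the 11, for HLA-B, HLA-C, B2M, TAP1, TAPBP and ERAP1, against 9.96% of all windows. CCAAT occurred in 5 of the 11, against 32% of all. TTCNNNGAA occurred in 1, before a second TAP1 start, against 6.57% of all. A match is a string of letters and says nothing of binding, and a window without one lacks only those letters.

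The deposited signals were close in trimmed mean, since MAS5 scales each array to a common target. With 2% cut at each end it was 500.1 on the PML4 array and 500.0 on the control array. The median signal of human probe sets was not level, at 64.0 on the PML4 array and 80.6 on the control array. The share of human probe sets above the floor was 48.1% on the PML4 array and 51.9% on the control array. The 3' to 5' ratio of GAPDH, an RNA integrity control, was 1.53 on the PML4 array and 1.55 on the control array, and that of ACTB was 2.80 on the PML4 array and 2.94 on the control array. All 6 K562 marker genes with a probe set of their own were measured, with a summed signal of 69539.4 on the PML4 array and 45206.4 on the control array. They did not stay level, with log2 differences of 1.96 for HBZ, 0.84 for TFRC, 0.44 for HBE1, 0.27 for GATA1, 0.06 for KLF1 and -0.53 for TAL1. Their part in the class I differences was not tested. PML itself has 10 probe sets, and the measured ones disagreed. Its probe set 211013_x_at was at 1386.8 on the PML4 array and 216.3 on the control array. Another, 210362_x_at, was at 698.5 on the PML4 array and 98.1 on the control array. Only 206503_x_at was past 2-fold lower, at 156.5 on the PML4 array and 927.2 on the control array. The rest of the measured ones went both ways. The RNA of PML therefore gives no single-direction check of the labels.

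Among the 9 genes, ERAP2 was 3.08-fold lower with PML4 and no other of them reached 2-fold lower. None was at least 2-fold higher. Over all 12541 measured genes, 3.21% were at least 2-fold lower and 1.23% at least 2-fold higher. ERAP1, TAP2 and HLA-B had signals 1.49-fold to 1.69-fold lower, and TAP1 1.24-fold lower. B2M, TAPBP and HLA-C were within 1.05-fold of equality, and HLA-E was 1.20-fold higher. By direction alone 7 genes were lower and 2 higher (6 and 3 after centring on the median, where TAPBP turned), where 55.3% of all measured genes were lower. The median of the 9 differences was -0.31 on the log2 scale, and that of all measured genes was -0.05. In bulk RNA, fewer cells of a kind and less RNA per cell cannot be told apart.

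Of the 31 probe sets, 21 were above the floor on both arrays, 2 on the control array only, 1 on the PML4 array only and 7 on neither. Of the 24 measured ones, 16 were lower and 8 higher, and 2 were at least 2-fold lower, 1 each of ERAP1 and ERAP2. Over all 29370 measured probe sets 56.9% were lower by any amount, 3.22% were at least 2-fold lower and 1.3% at least 2-fold higher. Genes at least 2-fold lower were more frequent at low signal. Below the 25th percentile of mean signal 7.24% were. Of genes between the 25th and 50th percentile of mean signal, which hold TAP1 and ERAP2, 3.99% were. Of those between the 50th and 75th percentile, which hold HLA-B, TAP2 and ERAP1, 0.893% were, and above the 75th percentile 0.702%.

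**Figure D1:**
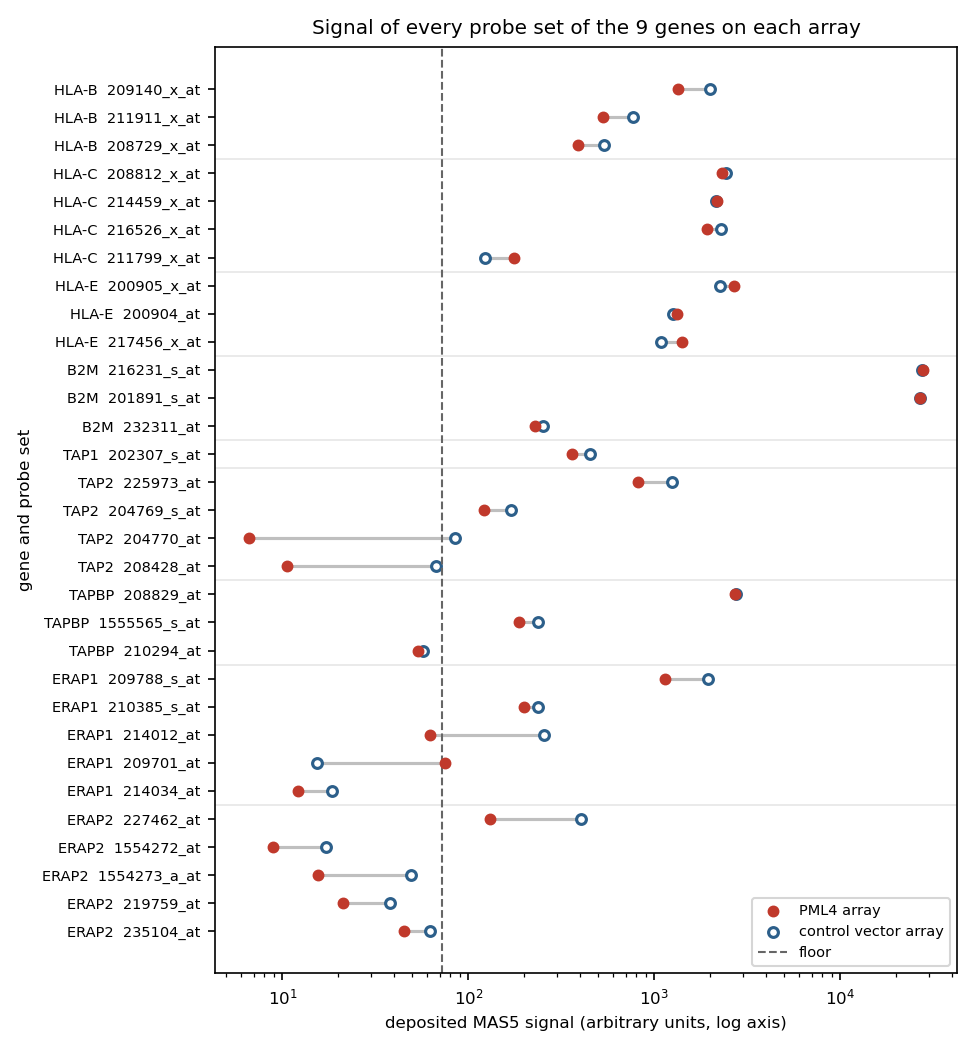
Deposited MAS5 signal (horizontal log axis, arbitrary units) of each of the 31 probe sets (vertical axis), with filled points for the PML4 array, open points for the control vector array and a dashed line at the floor of 72.4. The 3 HLA-B probe sets and ERAP2 227462_at have their PML4 points to the left of their control points, the brighter B2M pair coincide, and 4 of the 5 ERAP2 probe sets lie left of the floor on both arrays.

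The heavy chain genes did not move together. HLA-B, a classical chain that presents to CD8 T cells, was lower in 3 of 3 probe sets. Its signal was 1344 on the PML4 array and 1997.3 on the control array with 209140_x_at, a log2 difference of -0.57. The probe set 211911_x_at gave 526.9 on the PML4 array and 771.6 on the control array, and 208729_x_at gave 389.4 on the PML4 array and 537.5 on the control array. The 3 differences ran from -0.57 to -0.47 and so were closer to each other than the usual gap between probe sets of a gene. All 3 carry the _x_at ending described below and may read some of the same transcripts. Their closeness is therefore not that of independent readings. On the list of all measured genes, 12.3% lay below HLA-B.

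HLA-C, the classical chain read mainly by the killer immunoglobulin receptors of natural killer cells, had no common direction. Its probe set 208812_x_at was at 2316.6 on the PML4 array and 2426.5 on the control array, a log2 difference of -0.07. The probe set 214459_x_at was at 2178.2 on the PML4 array and 2138.2 on the control array, and 216526_x_at was at 1912.2 on the PML4 array and 2278.8 on the control array. The dimmest, 211799_x_at, was at 175.6 on the PML4 array and 122.5 on the control array, a log2 difference of 0.52. The HLA-C probe sets thus gave 2 lower and 2 higher values, with the mean over them at 0.06.

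HLA-E, the ligand of the inhibitory receptor CD94/NKG2A on natural killer cells, had a higher signal with PML4 in 3 of 3 probe sets. Of all 29370 measured probe sets 12667 were higher. The probe set 200905_x_at was at 2694.6 on the PML4 array and 2246.4 on the control array, a log2 difference of 0.26. The probe set 217456_x_at was at 1410.6 on the PML4 array and 1082.4 on the control array. The third, 200904_at, was at 1315.7 on the PML4 array and 1264 on the control array, a log2 difference of 0.06, and it is the only HLA-E probe set without the _x_at ending. All 3 differences were under 1.5-fold.

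HLA genes are close paralogs, and the ending _x_at marks probe sets that the array's maker expects to match other transcripts as well. All 7 probe sets of HLA-B and HLA-C and 2 of 3 of HLA-E carry it, while none of the 21 probe sets of the other members does. The annotation names a single gene for each of the 31 probe sets, so the sharing is shown by the ending alone and not by a second gene name. Probe sets named for other class I genes were read beside them, a choice made after the values were seen. HLA-F and HLA-G are nonclassical chains and HLA-J is a pseudogene. These 3 genes have 8 probe sets, 7 of them ending in _x_at. Those 7 were the measured ones, so they may read some of the same transcripts. All 7 were lower with PML4, also under 3 other scalings, with a median log2 difference of -0.51. Of all measured probe sets 56.9% were lower. HLA-G was lower in 4 of 4 probe sets, and 211530_x_at, which stands for it, gave 513.9 on the PML4 array and 1002.5 on the control array. HLA-J, with 1 probe set, was at 54.1 on the PML4 array and 232.4 on the control array, at least 3.21-fold lower. How much of any of these signals comes from HLA-B or another paralog was not tested.

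B2M, the light chain that every class I molecule needs, was level on both arrays in its bright probe sets. The probe set 216231_s_at was at 27907.8 on the PML4 array and 27579.2 on the control array, and 201891_s_at was at 26889.3 on the PML4 array and 26793.7 on the control array. The third probe set, 232311_at, was at 227 on the PML4 array and 250.7 on the control array. The differences were 0.02, 0.01 and -0.14 on the log2 scale. Signals of the bright pair lie in the upper part of the scale, which ends at 47622.1 on the PML4 array and 53703.3 on the control array, and whether it was compressed there was not tested.

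The transporter of peptides had lower signals in both of its chains. TAP2 was at 815.4 on the PML4 array and 1239.4 on the control array with 225973_at, 1.52-fold lower. Its probe set 204769_s_at was at 121.3 on the PML4 array and 169.2 on the control array, 1.39-fold lower. The remaining TAP2 probe sets were dim. The probe set 204770_at was at 6.6 on the PML4 array and 84.7 on the control array, at least 1.17-fold lower against the floor, and 208428_at, at 10.6 on the PML4 array and 67.3 on the control array, stayed below the floor. TAP2 was therefore lower in all 3 measured probe sets, and 11.1% of measured genes lay below it.

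TAP1, the other chain, has 1 probe set. It was at 360.9 on the PML4 array and 448.2 on the control array, a log2 difference of -0.31, with 25.5% of measured genes below it. This difference was close to the usual gap between probe sets of a gene.

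TAPBP, whose product tapasin holds the empty class I molecule at the transporter and edits its peptide, was level in its brightest probe set. That probe set, 208829_at, was at 2729.5 on the PML4 array and 2757 on the control array, a log2 difference of -0.01. The probe set 1555565_s_at was at 187.5 on the PML4 array and 237.8 on the control array, 1.27-fold lower, and 210294_at stayed below the floor, at 53.6 on the PML4 array and 56.7 on the control array. All 6 measured probe sets of TAP1, TAP2 and TAPBP were lower with PML4, by 1.01-fold to 1.52-fold, except that 208829_at was higher, at 0.02, after centring on the median. Of all measured probe sets 56.9% were lower.

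The trimming peptidases were the lowest of the members. ERAP1, which shortens peptides from their N terminus to the length that class I molecules bind, was at 1146 on the PML4 array and 1931.5 on the control array with 209788_s_at, 1.69-fold lower. Of all measured genes 7.18% lay below it. Its probe set 210385_s_at was at 198.9 on the PML4 array and 236.5 on the control array, 1.19-fold lower. The probe set 214012_at was at 62.2 on the PML4 array and 256 on the control array, at least 3.54-fold lower. In contrast 209701_at was at 74.9 on the PML4 array and 15.4 on the control array, the single ERAP1 probe set with a higher PML4 signal and just above the floor. The fifth, 214034_at, stayed below the floor, at 12.2 on the PML4 array and 18.5 on the control array. The size of the ERAP1 difference thus ran from 1.19-fold to at least 3.54-fold over the probe sets that were lower.

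ERAP2, the companion peptidase that prefers basic N-terminal residues, was at 130.5 on the PML4 array and 401.9 on the control array with 227462_at. This is a log2 difference of -1.62, the 54th lowest of 12541 genes. It rests on a single measured probe set, and with a floor of 465, the 75th percentile, the gene is not measured at all. The other 4 ERAP2 probe sets were under the floor on both arrays, where signals are near background. Their PML4 signals were 8.9, 15.5, 21.2 and 45, against 17.1, 49.4, 37.7 and 62 on the control array, for 1554272_at, 1554273_a_at, 219759_at and 235104_at in that order. Each was lower with PML4, but below the floor they count as no measured difference.

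**Figure D2:**
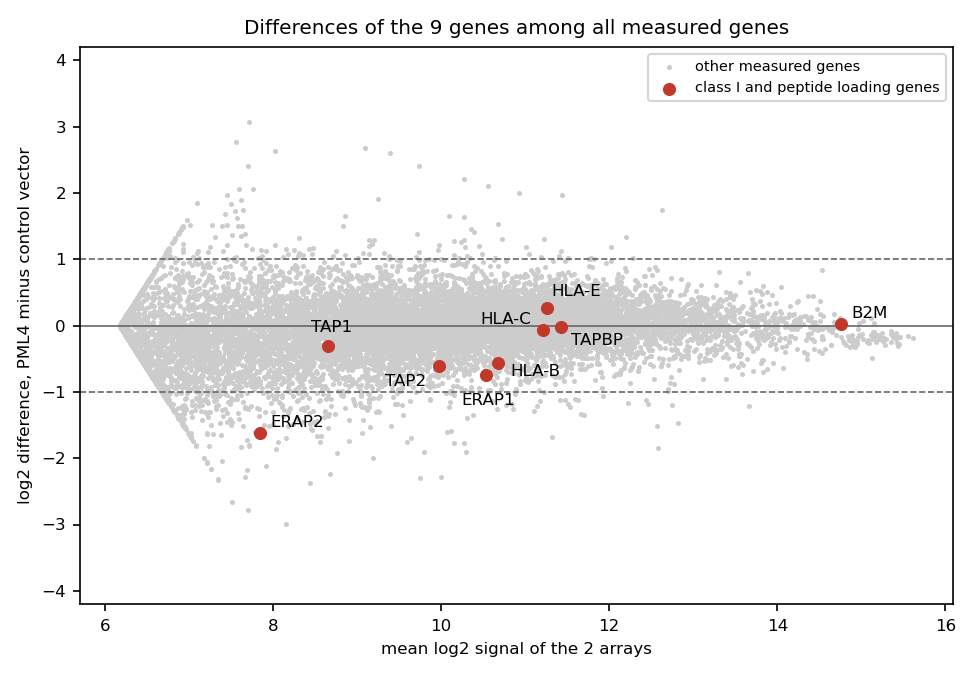
Log2 difference, PML4 minus control vector (vertical axis), against the mean log2 signal of both arrays (horizontal axis) for 12541 measured genes in grey and the 9 class I and peptide loading genes in colour, with dashed lines at 2-fold. ERAP2 lies below the lower line at -1.62, ERAP1, TAP2 and HLA-B lie between -0.75 and -0.57, and B2M lies at 0.02.

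Genes next to the members were read to see whether a whole stretch of chromosome shared a direction. The nearest measured protein-coding genes in the RefSeq annotation of GRCh38.p14, 2 on each side of each member, gave 25 genes that are not members. Of these 12 were lower and 13 higher, none by 2-fold, with a median log2 difference of 0.01. The stretch around the transporter genes, singled out after its values were seen, had 1 direction. There HLA-DOB, TAP2, PSMB8, TAP1 and PSMB9 stand in this order among measured genes. Of these 5 of 5 were lower, by 1.24-fold to 1.73-fold, so none reached 2-fold. Over all measured genes 55.3% were lower by any amount. PSMB9, a catalytic subunit of the immunoproteasome, was at 517.4 on the PML4 array and 850.3 on the control array. PSMB8, another such subunit, was at 493.2 on the PML4 array and 729.4 on the control array. HLA-DOB, a class II chaperone chain, was at 161.3 on the PML4 array and 278.9 on the control array.

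ERAP1 and ERAP2 adjoin each other among measured genes, and the genes around them went both ways. CAST, the calpain inhibitor next to ERAP1, was higher at 2932.8 on the PML4 array and 2091 on the control array. RIOK2, a kinase of ribosome maturation beyond ERAP2, was at 849.5 on the PML4 array and 658.7 on the control array. Further out, ELL2 on the ERAP1 side was 1.27-fold lower, at 573.6 on the PML4 array and 731.3 on the control array, and CHD1 on the ERAP2 side was 1.04-fold higher. Next to B2M, PATL2 was at 108.5 on the PML4 array and 183.5 on the control array, and TRIM69 was at 369.9 with PML4 and 233.2 with the control vector, so its neighbours went opposite ways, and beyond them SPG11 was 1.26-fold and SHF 1.07-fold lower. RGL2, next to TAPBP, was at 1211.5 on the PML4 array and 1733.4 on the control array, 1.43-fold lower. The other three near TAPBP were higher, ZBTB22 by 1.27-fold, WDR46 by 1.32-fold and DAXX, a PML body protein, by 1.36-fold.

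Around HLA-E, 3 of 4 neighbours were higher, where 5605 of all 12541 measured genes were. TRIM26 was at 389.4 on the PML4 array and 273.1 on the control array, GNL1 was 1.28-fold and PRR3 1.21-fold higher, and TRIM10 was at least 1.40-fold lower. Around HLA-B and HLA-C, TCF19 was 1.17-fold and CCHCR1 1.10-fold higher, and MICA and MICB are given with their list. Around the transporter genes HLA-DMB was 1.11-fold and HLA-DQB1 at least 1.20-fold lower.

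The wider pathway was read through 7 lists that hold 90 genes, 81 of them with a probe set of their own and 68 measured. Of these 68 genes 4 were at least 2-fold lower, where 3.21% of all measured genes were, and none was at least 2-fold higher, where 1.23% were. Their median log2 difference was -0.09, beside -0.05 for all measured genes.

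Relatives of the heavy chain and ligands of the same fold held 3 of the 4. Of 9 measured genes 8 were lower, where 55.3% of all measured genes were, and 3 were at least 2-fold lower, where 3.21% were. Their median was -0.67. FCGRT, the heavy chain of the neonatal Fc receptor, which pairs with B2M, was at 131.9 on the PML4 array and 312.8 on the control array, 2.37-fold lower. PROCR, the endothelial protein C receptor, which has the same fold without B2M, was at 395 on the PML4 array and 811.9 on the control array, 2.06-fold lower. HLA-J, given above and a bound, was the third. FCGRT and HLA-J had low signals, and genes of low signal were more often at least 2-fold lower, as given above. The probe sets that stand for HLA-F, HLA-G, HLA-J and HFE end in _x_at, so they may read other transcripts as well. MICA and MICB, stress ligands of the receptor NKG2D, differed less. MICB was at 2179.4 on the PML4 array and 2698.2 on the control array, and MICA at 860.4 with PML4 and 855 with the control vector.

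Chaperones and peptidases of loading held no gene past 2-fold among 13 measured, of which 8 were lower and 5 higher, with a median of -0.09. CANX, the lectin chaperone calnexin, was at 9634.9 on the PML4 array and 10493.8 on the control array. PDIA6, a disulfide isomerase, was at 9949.9 on the PML4 array and 11822.3 on the control array. Of 6 measured genes of the immunoproteasome and its activator 2 were lower, PSMB8 and PSMB9, and 4 higher, with a median of 0.07. PSME1, a subunit of the activator, was at 2849.2 on the PML4 array and 2436.8 on the control array, and POMP, the proteasome assembly factor, was at 11759.1 with PML4 and 11029.8 with the control vector. The constitutive subunits that PSMB8, PSMB9 and PSMB10 replace were within 1.08-fold of equality. PSMB5 was at 4908.8 on the PML4 array and 4554.5 on the control array, and PSMB7 at 9903.9 with PML4 and 10184.3 with the control vector.

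Regulators of class I transcription had no shared direction. Of 25 measured genes 12 were lower and 13 higher, none by 2-fold, with a median of 0.00210. NLRC5, the class I transactivator, picked after its values were seen, was under the floor on both arrays. IFNGR1 and IFNGR2, the chains of the interferon gamma receptor, were at 5203.9 and 4140.2 on the PML4 array, against 5019.9 and 4913.4 on the control array. RFXANK, a subunit of the RFX complex that binds class I and class II promoters, and NFKB1, an NF-kB subunit, had the highest differences and were picked after their values were seen. RFXANK was at 1128 on the PML4 array and 662.8 on the control array, 1.70-fold higher, and NFKB1 was at 808.1 with PML4 and 493.6 with the control vector, 1.64-fold higher.

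**Figure D3:**
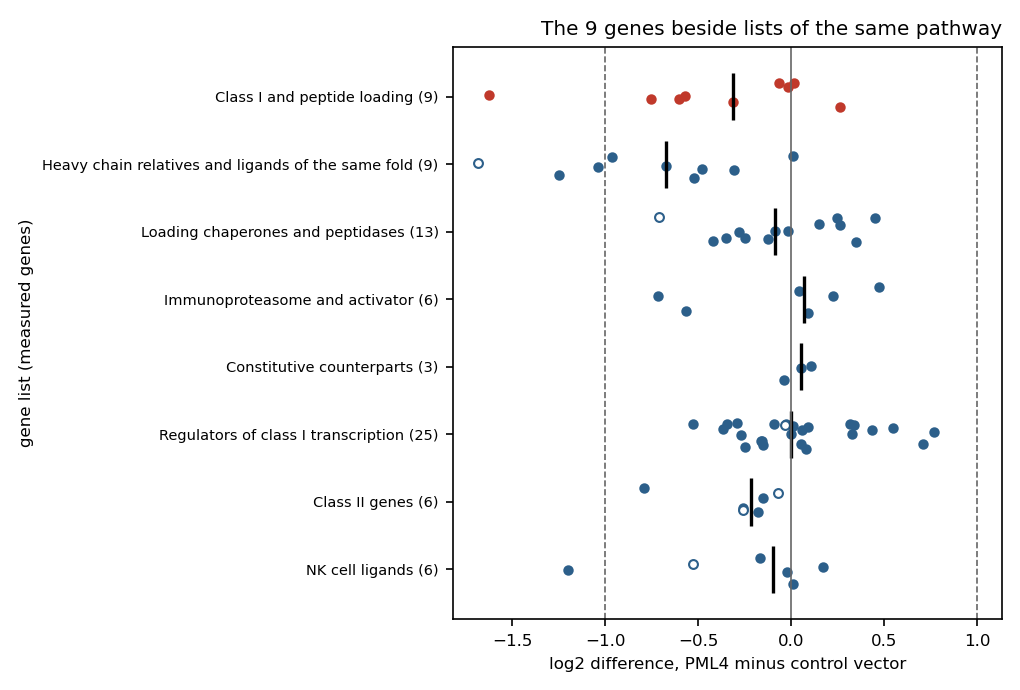
Log2 difference, PML4 minus control vector (horizontal axis), of each measured gene of the class I and peptide loading set (top) and of 7 lists of the same pathway (vertical axis, with the number of measured genes). Open points are bounds, black bars are medians and dashed lines mark 2-fold. The relatives of the heavy chain have the lowest median, -0.67, and the regulators of transcription spread to both sides of 0.

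Markers of other cells were read because leukocytes express class I genes strongly. PTPRC, the leukocyte antigen CD45, was at 470.9 on the PML4 array and 1067.2 on the control array, a log2 difference of -1.18. Whether its signal came from the K562 cells themselves was not tested. The sums given next take in markers under the floor. Of the T cell markers 1 of 3 was measured, CD3E, at 55.3 on the PML4 array and 105.9 on the control array. The T cell sum was 112 on the PML4 array and 177.7 on the control array. CD8A, under the floor, was at 5.2 with PML4 and 4.5 with the control vector. Of the B cell markers 1 of 3 was measured, CD79A, at 170.7 on the PML4 array and 205.5 on the control array. The B cell sum was 194.4 on the PML4 array and 224.2 on the control array. MS4A1, under the floor, was at 23.7 with PML4 and 18.7 with the control vector. Of the monocyte markers 2 of 3 were measured, LYZ and CSF1R. Their list summed to 3216.6 on the PML4 array and 3311.3 on the control array, nearly all of it LYZ. CSF1R was at 42.3 on the PML4 array and 76.3 on the control array. CD14, under the floor, was at 39.7 with PML4 and 28.6 with the control vector. Of the fibroblast markers 2 of 3 were measured, and the list summed to 377.4 on the PML4 array and 534.9 on the control array. COL1A1 was at 278.6 on the PML4 array and 394.2 on the control array, and DCN at 57.1 and 118.7 in that order. COL1A2, under the floor, was at 41.7 with PML4 and 22 with the control vector. All measured markers of these cells were lower with PML4 by some amount, where 55.3% of all measured genes were. CD3E, CSF1R and DCN were under the floor on the PML4 array. The part of such cells or of PTPRC in the class I differences was not tested.

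**Figure D4:**
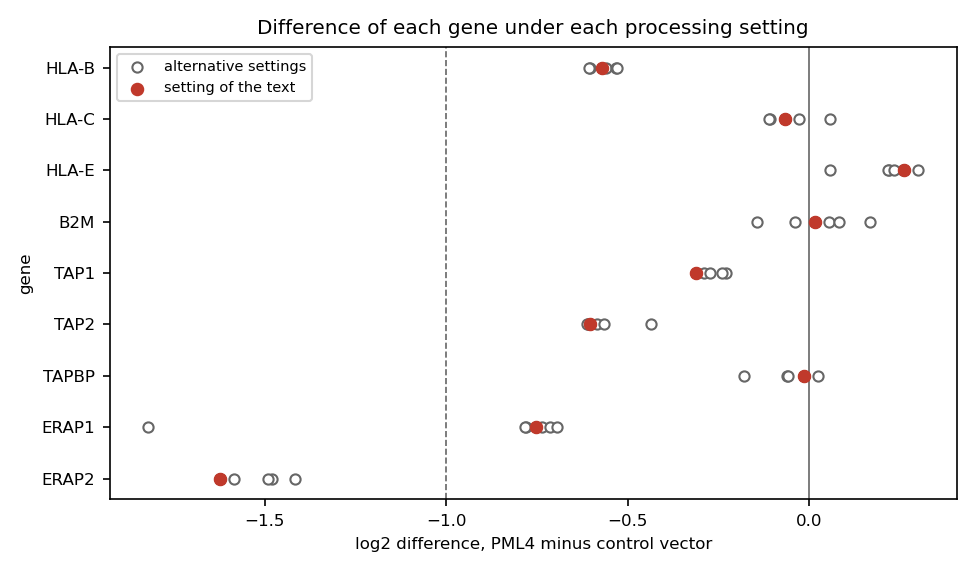
Log2 difference, PML4 minus control vector (horizontal axis), of each of the 9 genes (vertical axis) as reported (filled) and under each alternative processing that gave a value (open). The dashed line marks 2-fold lower. ERAP2 stays between -1.62 and -1.42, ERAP1 reaches -1.82 without the _x_at and _s_at probe sets, and B2M, HLA-C and TAPBP cross 0.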

How the data were processed

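Total RNA from K562 cells with PML4 or with the control vector was read on 1 array per group, from 6 µg of RNA, per the labels. The authors deposited MAS5 signal intensities on a linear scale, scaled per array, and MAS5 comes from the submitters' processing notes, which name no version. For its settings and a genome build: not given in the sources used here. Detection calls were not used here.

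Everything else was computed here with Python 3.11.15, numpy 2.4.6 and pandas 2.3.3. The intensities were used as deposited. Probe sets were named through GEO's platform annotation, which gave 1 gene for 41091 human probe sets, several for 1801 and none in the table used for 11721. Of the first, 41037 matched a RefSeq gene by Entrez identifier and no symbol changed. The floor was the 50th percentile of human probe sets over both arrays. With 1 array per group no test, p-value or standard error was possible. The calculation was tested on simulated data with known folds.

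The members and lists were chosen with earlier results of these data known. Named are every probe set of the members, the 2 nearest measured genes on each side of them, and, of each list, genes past 2-fold and the 2 of highest mean signal. The markers were fixed, and any other gene is said to be picked after its values were seen. The floor was also set at the 25th or the 75th percentile or replaced by a pseudocount of 32. Other scalings were median centring, quantile normalization and a loess fit (statsmodels 0.14.6, span 0.4). A gene was also read by its average probe set, without the _x_at and _s_at kinds, or with probe sets of several genes. Thresholds of 1.5-fold and 3-fold were tried.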

Additional observations from a re-analysis of the deposited data

How the results depend on the processing

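No paired analysis was possible because each group has 1 array. Over 9 alternatives of scaling, floor and probe sets, HLA-B, TAP1, TAP2, ERAP1 and ERAP2 stayed lower and HLA-E higher wherever they had a value. ERAP2 and TAP1 had no value at the 75th percentile floor, 465, where both lay under it. B2M, HLA-C and TAPBP changed sign in some, within -0.18 to 0.17 on the log2 scale, less than the gap between probe sets of a gene. ERAP1 was at -1.82 without the _x_at and _s_at probe sets, where 214012_at, a bound, stands for it, and HLA-B, HLA-C and TAP1 then had no value. Member genes at least 2-fold lower numbered 1 as reported, 2 without those probe sets and 0 at the 75th percentile floor, while 3 were at least 1.5-fold lower. Over all genes 11.8% were at least 1.5-fold lower. Member probe sets past 2-fold were 2 lower and 0 higher as reported, 5 and 1 at the 25th percentile floor, 0 and 0 at the 75th, and 3 and 1 without a floor. At 1.5-fold 4 were lower. Genes of the wider lists past 2-fold were 4 lower and 0 higher as reported, 8 and 2 at the 25th percentile floor, 0 lower at the 75th, 2 lower without a floor and 2 lower without the _x_at and _s_at probe sets. At 1.5-fold they were 9 lower and 2 higher, and at 3-fold 1 lower. The median over the member genes ran from -0.37 to -0.07, that of the heavy chain relatives from -0.67 to -0.39, and that of the immunoproteasome list turned to -0.11 with the mean over probe sets and -0.28 without the _x_at and _s_at ones. The cause of these shifts was not tested, other than the fewer genes above a higher floor. Dim probe sets are the least precise.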

Other observations

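Of 12 class II genes listed, 6 were measured, and all 6 were lower with PML4 as deposited, none by 2-fold, with a median log2 difference of -0.22, beside 55.3% of all measured genes lower. In these 6, 2 differences are bounds. After loess centring 4 of the 6 were lower. After quantile normalization 3 of 6 measured genes were lower, but that set was another, with HLA-DMA in it, which was not measured as deposited. HLA-DMA and the following genes other than CTSS were picked after their values were seen. CD74, the invariant chain, and HLA-DRA were under the floor on both arrays. HLA-DRB1 was at 79.3 on the PML4 array and 94.7 on the control array. CTSS, the protease cathepsin S that cuts the invariant chain, was at 1691.4 on the PML4 array and 1911.5 on the control array, and its 3 probe sets were all lower. Of measured genes below the 25th percentile of mean signal 73.8% were lower, so a shared lower direction among dim genes is common on these arrays.

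Ligands of natural killer cell receptors held 1 of the genes past 2-fold. Of 6 measured genes 4 were lower and 2 higher, with a median of -0.10. Over all measured genes 55.3% were lower and 3.21% at least 2-fold lower. ULBP2, a ligand of NKG2D, was at 107 on the PML4 array and 245.9 on the control array with 238542_at, 2.30-fold lower, and its other probe set, 221291_at, was at 64.3 with PML4 and 100.5 with the control vector. NCR3LG1, the ligand B7-H6 of the receptor NKp30, was at 2511.8 on the PML4 array and 2226.4 on the control array. BAG6, another protein bound by NKp30, was at 5229.7 on the PML4 array and 5186.5 on the control array. Its 4 probe sets were all higher as deposited, but only 2 of 4 were after quantile normalization or loess centring. As deposited, 12667 of all 29370 measured probe sets were higher.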
